A study of Mus musculus with 5 samples.

Results

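9 maternal imprints that lie in a retrogene or a small domain were followed in mouse sperm: Peg10, Nap1l5, Mcts2, Nnat, Gnas, Zrsr1, Peg13, Slc38a4 and Inpp5f. Each was taken as 1 fixed window of the mm10 build. Every CpG in it with at least 5 reads on a strand was used, and strands that both reached 5 reads were summed. The 9 windows held 173 and 178 listed CpGs in old libraries 1 and 2, of 6784109 and 7599174 in all, and 175, 92 and 128 in young libraries 1 to 3, of 6918619, 4905137 and 6714256. The samples were whole-genome bisulfite libraries of sperm from C57BL/6 mice, 2 from males aged 18 months (old) and 3 from males aged 2 months (young). The sperm were those that swim out of the cauda of the epididymis, where mature sperm are kept. No genotype or treatment other than age is given for either group. Whether a library is 1 animal or a pool is not stated in the labels. The p-values therefore measure the spread between these 5 libraries alone, which may be technical.

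A maternal imprint is a CpG-rich stretch that gains DNA methylation in the growing oocyte and is unmethylated in mature sperm, so that after fertilization the maternal copy is methylated and the paternal copy is not. Most of these genes are then expressed from the paternal allele. Several members are retrogenes, copies inserted into an intron of a host gene, with a promoter that carries the imprint. In bisulfite sequencing unmethylated cytosines are read as T, so the percent of reads that still show C is the methylation level.

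RefSeq promoter entries matched 7 of the 9 members, all but Peg10 and Peg13. Printed here are 4 CpG-rich promoters that lie inside a window, since some levels described below are given at them or placed by them. They run 250 bases before to 50 after the start of the gene, 5′ to 3′ on the gene's strand, from RefSeq (GRCm38.p6), with every CpG in capitals. Nnat lies at chr2:157559828-157560127 on the plus strand and Mcts2 at chr2:152686898-152687197 on the plus strand. Nap1l5 lies at chr6:58907077-58907376 on the minus strand, and an inner Commd1 promoter, which is in the Zrsr1 window, at chr11:22972817-22973116 on the minus strand.
Nnat: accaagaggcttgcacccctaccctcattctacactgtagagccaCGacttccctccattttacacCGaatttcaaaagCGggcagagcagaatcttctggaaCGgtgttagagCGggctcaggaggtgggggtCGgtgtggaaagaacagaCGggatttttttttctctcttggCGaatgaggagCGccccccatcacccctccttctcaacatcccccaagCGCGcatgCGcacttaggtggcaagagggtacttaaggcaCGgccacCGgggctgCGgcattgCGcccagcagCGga
Mcts2: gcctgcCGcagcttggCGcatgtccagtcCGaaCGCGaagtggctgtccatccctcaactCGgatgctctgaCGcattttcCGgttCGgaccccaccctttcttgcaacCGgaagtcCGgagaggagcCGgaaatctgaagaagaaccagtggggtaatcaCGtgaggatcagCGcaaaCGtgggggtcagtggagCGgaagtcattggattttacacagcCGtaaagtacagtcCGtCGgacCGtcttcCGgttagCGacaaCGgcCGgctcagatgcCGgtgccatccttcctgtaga
Nap1l5: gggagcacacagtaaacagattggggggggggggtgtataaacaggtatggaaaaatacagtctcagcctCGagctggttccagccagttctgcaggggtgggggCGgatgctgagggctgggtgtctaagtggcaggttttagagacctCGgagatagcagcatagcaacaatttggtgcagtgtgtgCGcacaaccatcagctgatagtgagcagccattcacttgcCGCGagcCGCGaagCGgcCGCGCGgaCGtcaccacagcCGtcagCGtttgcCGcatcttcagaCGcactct
Commd1: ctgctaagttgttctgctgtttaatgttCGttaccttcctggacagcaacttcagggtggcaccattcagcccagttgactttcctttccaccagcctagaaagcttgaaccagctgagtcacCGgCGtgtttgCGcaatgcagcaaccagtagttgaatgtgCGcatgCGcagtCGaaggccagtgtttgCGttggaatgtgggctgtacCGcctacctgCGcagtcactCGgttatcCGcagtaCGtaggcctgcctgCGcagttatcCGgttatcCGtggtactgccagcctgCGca

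These sequences hold 17, 25, 17 and 17 CpGs in the order printed, against a median of 7 (quartiles 3 and 20) over 32817 mouse promoters of the same length. The 6 letters TGCCGC, which the imprint-binding zinc finger protein ZFP57 recognises when methylated, were searched on both strands. They occur once in Mcts2, in 2 places in Nap1l5, once on the reverse strand in Nnat and not in the Commd1 promoter. The same letters are in 11.6% of all promoters and in 25.2% of the 11356 with at least 15 CpGs, so the match is a description only. The promoters of Zrsr1 (10 CpGs) and Slc38a4 (5 CpGs) also lie in their windows.

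Few promoter CpGs reached 5 reads on a strand. In Nnat 6 of 17 did so, only in young library 1, with 0 methylated of 34 summed reads, which allows up to 8.82%. Mcts2 had 7 of 25 listed, again only in young library 1, with 0 of 39 reads methylated, which allows up to 7.69%. Nap1l5 had 13 of 17 listed, only in young library 2, with 1 of 65 reads methylated (1.54%). The inner Commd1 promoter was at 34.6% over 26 reads in young library 1, and its single CpG listed in old library 2 had 0 of 5 reads methylated. The promoters of Nnat, Mcts2 and Nap1l5 were therefore near 0 where they were seen, each in 1 young library, and no old library listed them. Reads at neighbouring CpGs come from the same molecules, so summed reads are not independent, and the limits and intervals given here cover counting error only.

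Across the windows the CpGs were partly methylated. No window was under 10% in every library that measured it, nor under 20%, and the level spanned 0% to 81.25% over members and libraries. The median over measured members was 27.1% and 30.7% in old libraries 1 and 2, against 18.7%, 10.05% and 34.1% in young libraries 1 to 3. Young library 3 was therefore the highest and young library 2 the lowest, with both old libraries between them. The label of a region unmethylated in sperm is thus not what these windows showed as wholes in every library. They were low against their surroundings, and the promoters of Nnat, Mcts2 and Nap1l5 were near 0 where they were seen.

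**Figure D1:**
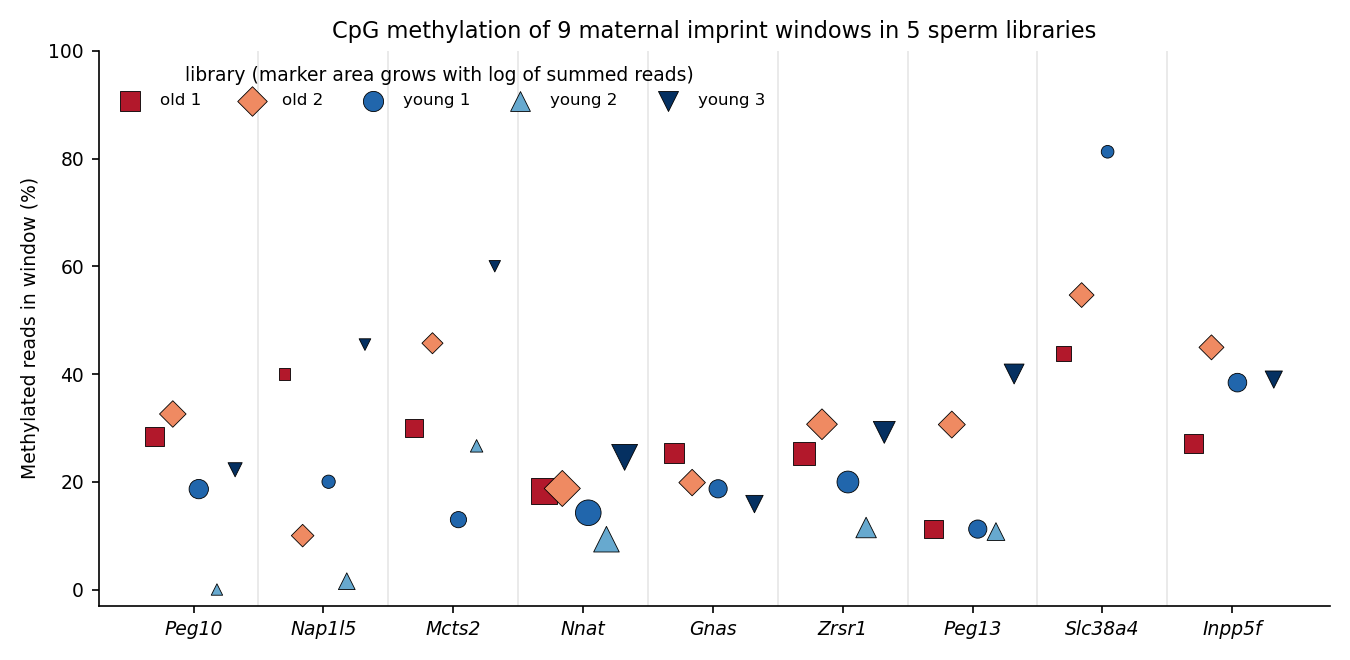
Percent of methylated reads (y axis) in each of the 9 windows (x axis), 1 marker for each of the 2 old and 3 young libraries, with marker area growing with the log of the summed reads; a library with no listed CpG has no marker. Young library 2 is the lowest marker in 5 of its 6 measured windows and young library 3 the highest in 4 of its 8, while Nnat and Zrsr1 have the most reads.

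Values of the whole series touched these levels. Reads over listed CpG cytosines summed to 67774094 in young library 2 and to between 84117315 and 97769462 in the other 4, and 86.3% to 86.9% of them were methylated. The same order of libraries was seen across the genome in the 4722 tiles of 1000 bp with a pooled level of 10 to 40%, with means of 27.5% and 29.2% in old libraries and 26.7%, 21.9% and 37.0% in young libraries 1 to 3. In the 283101 tiles above 80% young library 3 had the lowest mean, 92.7%, with 93.9% to 94.6% in the others. Promoters of 7 other maternal imprints, of which 4 to 6 were measured in a library, were at 54.8% and 44.5% summed over reads in old libraries, against 56.7%, 46.4% and 56.0% in young libraries. The libraries did not all list the same genes, and medians over the measured genes were 40.1% and 30.8% in old libraries, against 69.0%, 31.4% and 51.9% in young libraries. All RefSeq promoter entries of a gene were summed and were not limited to its imprinted region. Among these genes Snrpn, with 4 such entries, was at 69.0% to 78.5% in every library. That level need not be the level of its imprint. Plagl1 was at 0 in old library 2 (8 reads), and at 20% and 60% in young libraries 2 and 3 (5 reads each). Kcnq1ot1 was at 0 in young library 1 (33 reads) and at 20.4% to 42.9% in the other libraries. Grb10 was at 33.3% to 95.2% where it was measured. Regions of 3 paternal imprints, taken broadly and with 1 or 2 measured, were at 66.6% and 79.3% in old and 61.0%, 78.2% and 65.1% in young libraries. Promoters of germ cell genes (5 to 8 of 8 measured) were at 79.1% and 77.3% in old libraries and 71.1%, 66.9% and 89.2% in young libraries. Most of these reads were of Ddx4. Medians over the measured genes were lower, 29.4% and 37.4% in old libraries and 30.6%, 31.4% and 63.2% in young libraries. Dazl was at 0 in young library 2 (10 reads), at 11.4% in old library 2 (79 reads) and at 20% in young library 1 (20 reads). Leukocyte genes (3 of 4) were at 74.0% and 77.9% in old and 79.6%, 47.5% and 83.5% in young libraries. Epididymal genes (2 or 3 of 5) were at 91.5% and 94.1% in old and 94%, 94.9% and 90.6% in young libraries, and no gene of these last lists was at 0. The part of the library order or of other cells in the window levels was not tested.

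Within its own library each window was lower than the 10 kb on either side of it. This held in all 5 libraries for Peg10, Nap1l5, Mcts2, Nnat, Zrsr1 and Peg13, in all 4 measured for Gnas and Inpp5f, and in all 3 for Slc38a4. The mean difference of window minus flank was largest for Nap1l5 at -71.1 ± 18.7 points and Peg10 at -70.9 ± 12.3 (SD, n = 5 libraries each). It was -69.3 ± 15.7 for Peg13, -59.0 ± 9.10 for Nnat, -58.2 ± 11.2 for Zrsr1 and -51.6 ± 19.998 for Mcts2 (n = 5 each). Smaller differences were seen for Inpp5f at -45.9 ± 7.99 and Gnas at -43.7 ± 11.6 (n = 4 each), and for Slc38a4 at -34.4 ± 19.7 (n = 3). The two-sided exact sign-flip permutation test gave p = 0.063 for the windows with 5 libraries, 0.125 with 4 and 0.25 with 3, which are the smallest it can give. Adjusted over the 9 windows these were 0.0938, 0.141 and 0.25, so no window could pass 0.05.

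**Figure D2:**
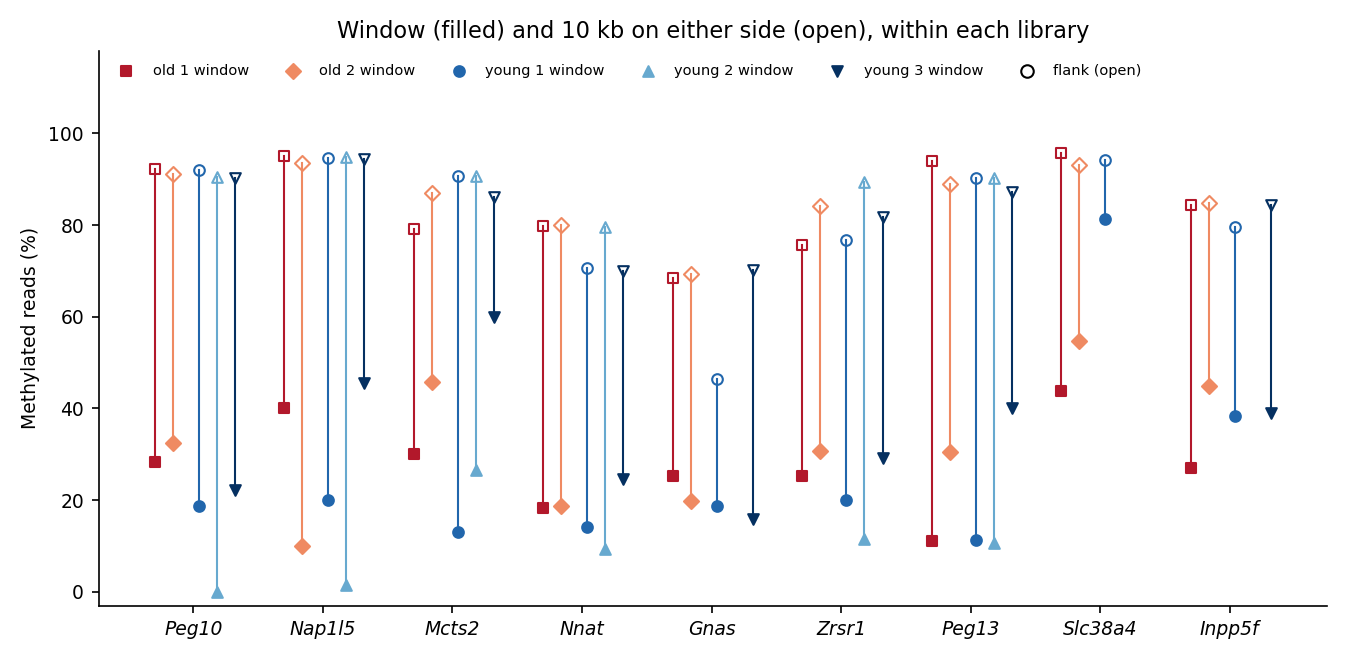
Percent of methylated reads (y axis) in the window (filled marker) and in the 10 kb on either side (open marker) for each member (x axis) and library, joined by a line. Every filled marker lies under its open one; the flank of Gnas in young library 1 is the lowest shown, at 46.4%, and that of Slc38a4 in young library 1 is the closest to its window.

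The question of the series was whether sperm of old and young males differ in methylation, and no window was called. A quasi-binomial model was fitted to all 442808 tiles and to the windows with at least 3 CpGs in every library, which were Nnat, Zrsr1 and Peg13. Of the 442811 rows 0% passed an adjusted p under 0.05 with a difference of at least 10 points, and 16894 (3.82%) had an unadjusted p under 0.05. The adjusted p (Benjamini-Hochberg, quasi-binomial model) was 1 for Nnat, Zrsr1 and Peg13, with unadjusted values of 0.517, 0.144 and 0.654. With limma on log ratios 0 rows were called and 18894 had an unadjusted p under 0.05, and a plain binomial model called 2811 tiles but 0 windows. In the comparison by library, 2 of the 9 windows (Peg10 and Gnas) had both old libraries above every young one, beside 8.74% of tiles, and 1 (Slc38a4) had both below, beside 8.37%. In either direction that is 3 of 9, beside 17.1% of tiles. Tiles needed at least 3 CpGs in all 5 libraries, which none of these 3 windows had. Peg10 had only 2 in young library 2. Gnas rested on 4 libraries and Slc38a4 on 3, where groups separate more easily. In the windows that met this, Nnat, Zrsr1 and Peg13, the groups overlapped. Without young library 3 the groups did not overlap in 6 windows (Peg10, Mcts2, Nnat, Gnas and Zrsr1 higher, Slc38a4 lower), beside 33.2% of tiles without it. Without old library 1 they did not overlap in 5 windows, beside 42.4% of tiles. Some windows again had fewer libraries than the tiles. Without old library 1, Slc38a4 set 1 old against 1 young library, which cannot overlap, and Gnas and Inpp5f set 1 against 2. Without young library 3, Gnas and Slc38a4 set 2 old libraries against 1 young. The median difference of old minus young over tiles was 0.139 points (quartiles -1.76 and 2.07).

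Nnat, which lies in an intron of Blcap and encodes neuronatin, a small membrane protein of the endoplasmic reticulum, was the best covered member (chr2:157559500-157562000). Its window was at 18.3% (2253 summed reads) and 18.8% (1973) in old libraries 1 and 2, against 14.2% (2078), 9.34% (2077) and 24.5% (2361) in young libraries 1 to 3. The old libraries lay next to each other and inside the range of the young ones. The mean was 18.5% ± 0.298 in old (SD, n = 2) and 16.04% ± 7.75 in young sperm (SD, n = 3), a difference of 2.51 points (exact permutation test, two-sided, p = 0.7). With 2 libraries against 3 this test cannot go below 0.1, here and for the other members. Without young library 3 the difference was 6.75 points, with an unadjusted p of 0.00566 and an adjusted p of 0.913 (quasi-binomial model), and without young library 2 it was -0.842 points.

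The 30 Nnat CpGs listed in all 5 libraries gave nearly the same levels, 18.3% and 18.6% in old libraries against 14.5%, 9.70% and 25.1% in young libraries. Young library 3 was highest at 26 of them and young library 2 lowest at 27. At the 7 with at least 100 reads in every library the range was 16.2% to 20% and 16.5% to 21.9% in old libraries 1 and 2, against 14.7% to 21.8%, 9.48% to 13.7% and 23.1% to 30.6% in young libraries 1 to 3. The ranges of young libraries 2 and 3 thus did not touch, and those of both old libraries lay between. The deepest CpG of each library was not always the same one. There, young library 2 had 9.91% methylated (exact 95% Clopper-Pearson interval 6.24% to 14.7%, 212 reads) and young library 3 had 25.4% (20.03% to 31.4%, 240 reads). Old libraries 1 and 2 had 16.2% (11.7% to 21.5%, 235 reads) and 19.02% (13.6% to 25.4%, 184 reads), overlapping with young library 1 at 15.0% (10.5% to 20.5%, 213 reads).

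The common CpGs of Nnat were also taken by side. The 15 common CpGs after the window centre, with 32 to 240 reads each, were at 17.3% and 18.4% in old libraries, against 15.0%, 10.4% and 24.4% in young libraries. The 15 before the centre, nearer the promoter printed above and with 5 to 28 reads each, were at 32.7% and 20.2% in old libraries against 6.98%, 0.719% and 35.3% in young libraries. On this shallower side, with 129 to 257 summed reads a library against 1589 to 2102 on the other, old library 1 and young library 3 were high and young libraries 1 and 2 low. The common CpG with the highest pooled level, at position 157560532 of chromosome 2, is on this side, with 26.7% of 45 reads. Mean coverage of the common Nnat CpGs was 61.5 to 75.1 reads per library, while it was 11.6 to 14.1 over all listed CpGs, and the part of this coverage in the level was not tested. The promoter of the host gene Blcap, with 500 bp either side, was at 0% in all 3 young libraries, with 89, 5 and 46 reads, and was not listed in old ones. That of 89 reads allows up to 3.37%.

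**Figure D3:**
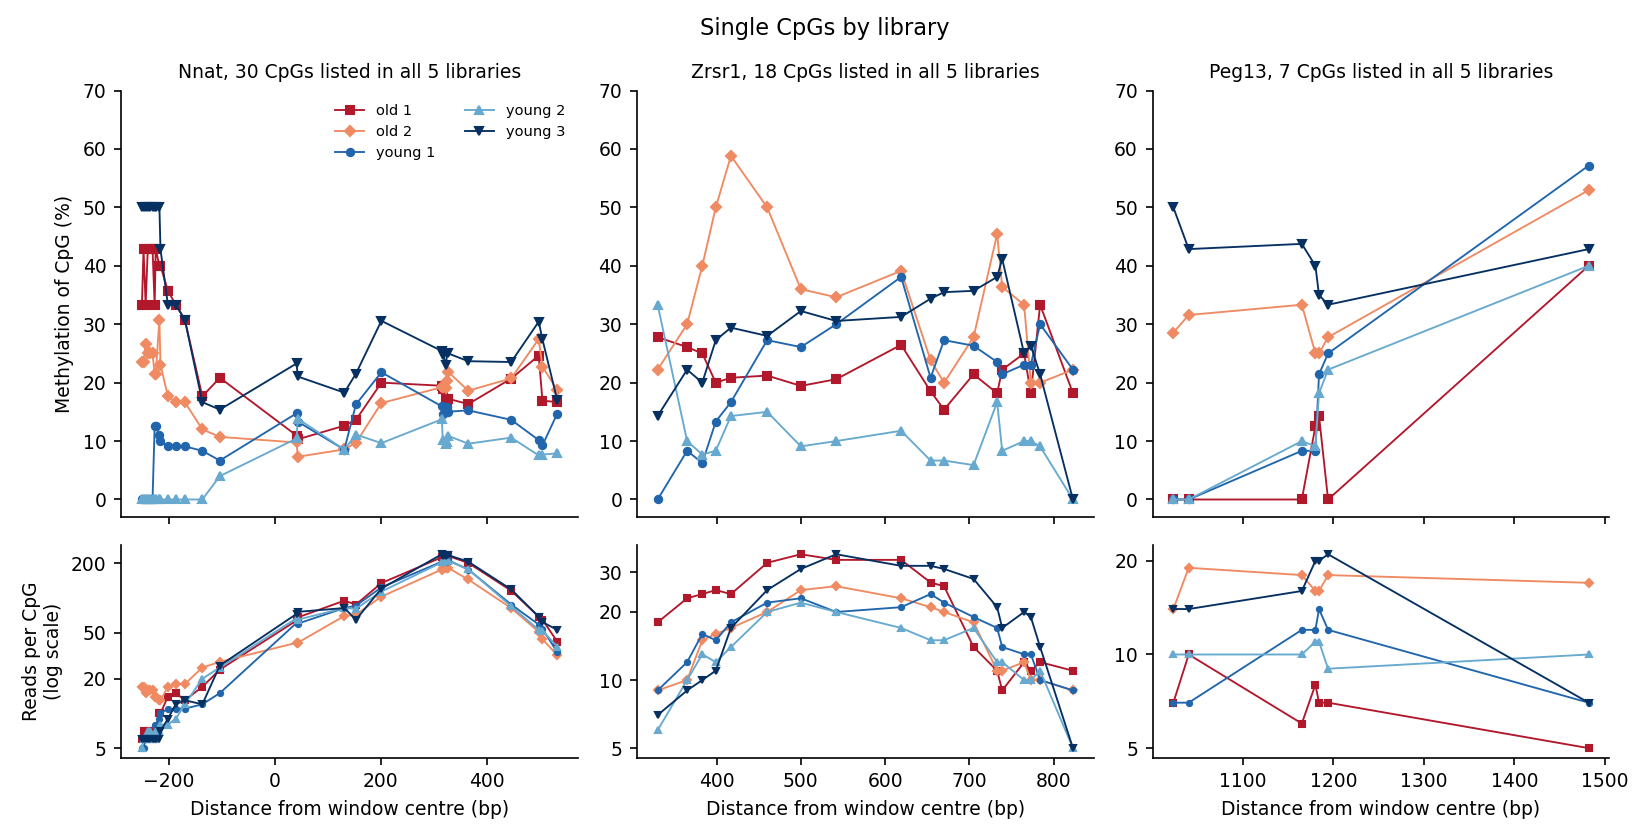
Upper panels show the methylation of each CpG listed in all 5 libraries (y axis, percent) against its distance from the window centre (x axis, bp) in Nnat, Zrsr1 and Peg13, 1 line per library; lower panels show the reads behind each point on a log axis. In Nnat young library 3 runs above and young library 2 below the others at most CpGs, in Zrsr1 old library 2 and young library 3 run high, and in Peg13 the lines meet at the last CpG.

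Zrsr1, a retrogene in an intron of Commd1 that encodes a splicing factor related to U2AF, had the next deepest window (chr11:22971500-22974500). It was at 25.2% (523 reads) and 30.7% (401) in old libraries, against 19.95% (416), 11.5% (252) and 29.2% (432) in young libraries 1 to 3. Old library 2 was highest and young library 2 lowest, and young library 3 fell between the old ones. The mean was 28.0% ± 3.84 in old (SD, n = 2) and 20.2% ± 8.83 in young sperm (SD, n = 3), a difference of 7.75 points (exact permutation test, two-sided, p = 0.4). Without young library 3 the difference was 12.2 points, with an unadjusted p of 0.0158 and an adjusted p of 0.913 (quasi-binomial model), and without young library 2 it was 3.40 points, with an unadjusted p of 0.417. At the 18 CpGs listed in all 5 libraries the levels were 21.9% and 35.0% in old libraries, against 22.6%, 10.4% and 30.4% in young libraries. Old library 2 was highest at 11 of the 18 and young library 2 lowest at 15. The common CpG with the highest pooled level, at position 22973619 of chromosome 11, had 29.9% of 127 reads methylated.

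Each window was also split into 3 parts of equal length. The middle part of the Zrsr1 window, which holds the inner Commd1 promoter, was at 22.7% and 36.3% in old libraries, against 13.6%, 13.3% and 22.2% in young libraries, so the groups did not overlap there, though old library 1 and young library 3 nearly met. The libraries listed different CpGs there, and at the 6 listed in all 5 libraries the groups overlapped, with 23.1% and 44.8% in old libraries against 14.1%, 13.3% and 25.3% in young libraries. In the last part the groups also overlapped, with 24.6% and 29.5% in old libraries against 26.4%, 10.7% and 31.9% in young libraries. The first part, around the Zrsr1 start, had at most 23 reads and spanned 0% in old library 2 to 56.5% in old library 1. The parts were compared after their values were seen, with no test. Tiles of Commd1 outside the window were low by pooled reads, with 4% at 22981001 and, over its outer promoter, 9.39% at 22982001, and a tile of the chaperonin gene Cct4 at 22990001 was at 0%.

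Peg13, a long noncoding RNA expressed from the paternal allele in brain, lies in an intron of Trappc9 (window chr15:72808500-72811500). It was at 11.2% (125 reads) and 30.6% (147) in old libraries, against 11.2% (107), 10.8% (93) and 40% (200) in young libraries 1 to 3. Each age held a library well above its others, old library 2 and young library 3, while old library 1 was level with young libraries 1 and 2. The mean was 20.9% ± 13.7 in old (SD, n = 2) and 20.7% ± 16.8 in young sperm (SD, n = 3), a difference of 0.250 points (exact permutation test, two-sided, p = 0.9). At its 7 common CpGs the levels were 8% and 32.2% in old libraries, against 16.9%, 14.1% and 40.2% in young libraries, a difference of -3.62 points. Young library 3 was highest at 6 of these and old library 1 lowest, alone or tied, at 6. The common CpG with the highest pooled level, at position 72811482 of chromosome 15 near the end of the window, had 47.8% of 46 reads methylated, and its levels were 40% and 52.9% in old libraries against 57.1%, 40% and 42.9% in young libraries.

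Peg10 derives from a retrotransposon and is needed for the placenta, and it shares its imprint with Sgce, a sarcoglycan gene (window chr6:4746000-4749600). The window was at 28.4% (141 reads) and 32.6% (132) in old libraries, against 18.6% (161), 0% (10) and 22.2% (27) in young libraries 1 to 3. Both old libraries lay above all young ones. Young library 2 listed only 2 CpGs, and its 10 reads without methylation allow up to 30%. The mean was 30.5% ± 2.97 in old (SD, n = 2) and 13.6% ± 11.9 in young sperm (SD, n = 3), a difference of 16.9 points (exact permutation test, two-sided, p = 0.2). Without young library 2 it was 10.04 points, with an unadjusted p of 0.0285 and an adjusted p of 0.931 (quasi-binomial model). No CpG was listed in all 5 libraries. In the middle part, which holds the Peg10 start, the level was 37.0% (73 reads) and 37.3% (102) in old libraries, against 18.6% (161) in young library 1 and 0% (10) in young library 2. In the first part young library 3 was at 22.2% (27 reads), beside 19.2% (26) and 20% (10) in old libraries. The middle and first parts thus held different young libraries. Place and library cannot be told apart in this contrast.

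Gnas encodes the stimulatory G protein subunit and, from alternative first exons, other proteins, and an antisense RNA, Gnasas1, overlaps it (window chr2:174295000-174300000). Its window was at 25.3% (150 reads) and 19.8% (131) in old libraries, against 18.7% (107) in young library 1 and 15.9% (82) in young library 3, and young library 2 listed none. Both old libraries were higher, with old library 2 and young library 1 close together. The mean was 22.6% ± 3.88 in old and 17.3% ± 2.01 in young sperm (SD, n = 2 each), a difference of 5.32 points (exact permutation test, two-sided, p = 0.333, the smallest that 2 against 2 allows). The libraries had most of their reads in different places. The first part was at 20% (5 reads) and 14.8% (115) in old libraries 1 and 2, against 40% (30) in young library 1 and 0% (5) in young library 3. The middle part was at 25.5% (145 reads) and 56.25% (16) in old libraries, against 10.4% and 16.9% in young libraries 1 and 3 (77 each). The groups thus overlapped in the first part and did not in the middle one. In the middle part, however, old and young libraries listed mostly different CpGs, so place and age cannot be told apart there.

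Another start of Gnas was better covered. Around the promoter at 174327499, with 500 bp either side, the level was 13.6% and 17.3% in old libraries, against 11.8%, 8.70% and 33.7% in young libraries 1 to 3 (230 to 674 reads). There young library 3 was the highest, unlike in the window, where it was the lowest. The promoter at 174284070 was at 0% (5 reads) and 27.8% (18) in old libraries, against 13.75% (80) and 18.2% (132) in young libraries 1 and 3. Tiles at 174286001, 174287001 and 174300001, all within Gnas, were low at 10.4%, 18.9% and 5% of pooled reads. The tile at 174287001 was at 13.6% and 3.33% in old libraries, against 15.4%, 18.2% and 50% in young libraries.

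The remaining windows had few reads. Nap1l5, a nucleosome assembly protein retrogene in an intron of Herc3 (window chr6:58906500-58907600), was at 40% (10 reads) and 10% (50) in old libraries, against 20% (20), 1.54% (65) and 45.5% (11) in young libraries 1 to 3. The means were 25% ± 21.2 in old (SD, n = 2) and 22.3% ± 22.1 in young sperm (SD, n = 3), so the groups overlapped over most of their range, with a difference of 2.67 points (exact permutation test, two-sided, p = 0.9). The libraries read different places: old library 1 and young libraries 1 and 3 listed CpGs only in the first part, while young library 2 listed the 13 promoter CpGs only. In the first part old library 2 had 0 methylated of 20 reads, which allows up to 15%, at 4 CpGs that none of the other libraries listed.

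Mcts2, a retrogene copy of the translation factor gene Mcts1 in an intron of H13 (window chr2:152686000-152687600), was at 30% (90 reads) and 45.7% (35) in old libraries, against 12.96% (54), 26.7% (15) and 60% (10) in young libraries. Young libraries held both the lowest and the highest value, and the means were 37.9% ± 11.1 in old (SD, n = 2) and 33.2% ± 24.2 in young sperm (SD, n = 3), with a difference of 4.65 points (exact permutation test, two-sided, p = 0.8). Levels were higher at the start of the window than at its end. The first part was at 35% and 48% in old libraries, and at 80%, 80% and 60% in young libraries with 5 reads each. The last part, which holds the Mcts2 start, was at 20% over 10 reads in old library 1, against 0 of 27 reads in young library 1 and 0 of 5 in young library 2. The tile of the H13 promoter, at 152669001, was at 10.5% of 38 pooled reads over 4 CpGs. With 500 bp either side, the H13 promoter was higher, at 32.4% (37 reads) and 39.7% (58) in old libraries. In young libraries 1 to 3 it was at 75% (28), 52.2% (23) and 48.4% (31).

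Slc38a4, an amino acid transporter of liver and placenta (window chr15:97053500-97056500), was at 43.75% (32 reads) and 54.7% (86) in old libraries, against 81.25% (16) in young library 1, and young libraries 2 and 3 listed none. Both old libraries were lower, with a difference of -32.05 points for old minus young (exact permutation test, two-sided, p = 0.333, the smallest that 2 against 1 allows). All 16 reads of young library 1 were in the first part, farthest from the promoter, where old libraries 1 and 2 were at 87.5% and 59.1%. Old library 1 had 0 methylated of 16 reads in the middle part, which allows up to 18.75%, and old library 2 had 40% of 20 reads in the last part. The window difference thus compared different places, and in the shared first part the single young value lay between the old ones.

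Inpp5f, an inositol phosphatase gene, holds an imprinted inner promoter toward the end of the gene (window chr7:128688000-128689500). The window was at 27.1% (170 reads) and 44.9% (89) in old libraries, against 38.4% (125) in young library 1 and 39.0% (77) in young library 3, with none listed in young library 2. The young values lay between the old ones, and the means were 36.0% ± 12.6 in old and 38.7% ± 0.397 in young sperm (SD, n = 2 each), a difference of -2.68 points (exact permutation test, two-sided, p = 1). The last part was at 51.3% and 45.2% in old libraries, against 52.5% and 41.9% in young libraries 1 and 3, so the groups overlapped there too. The middle part was lower where it had more than 5 reads, 19.8% (131 reads) in old library 1 and 13.3% (45) in young library 1.

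**Figure D4:**
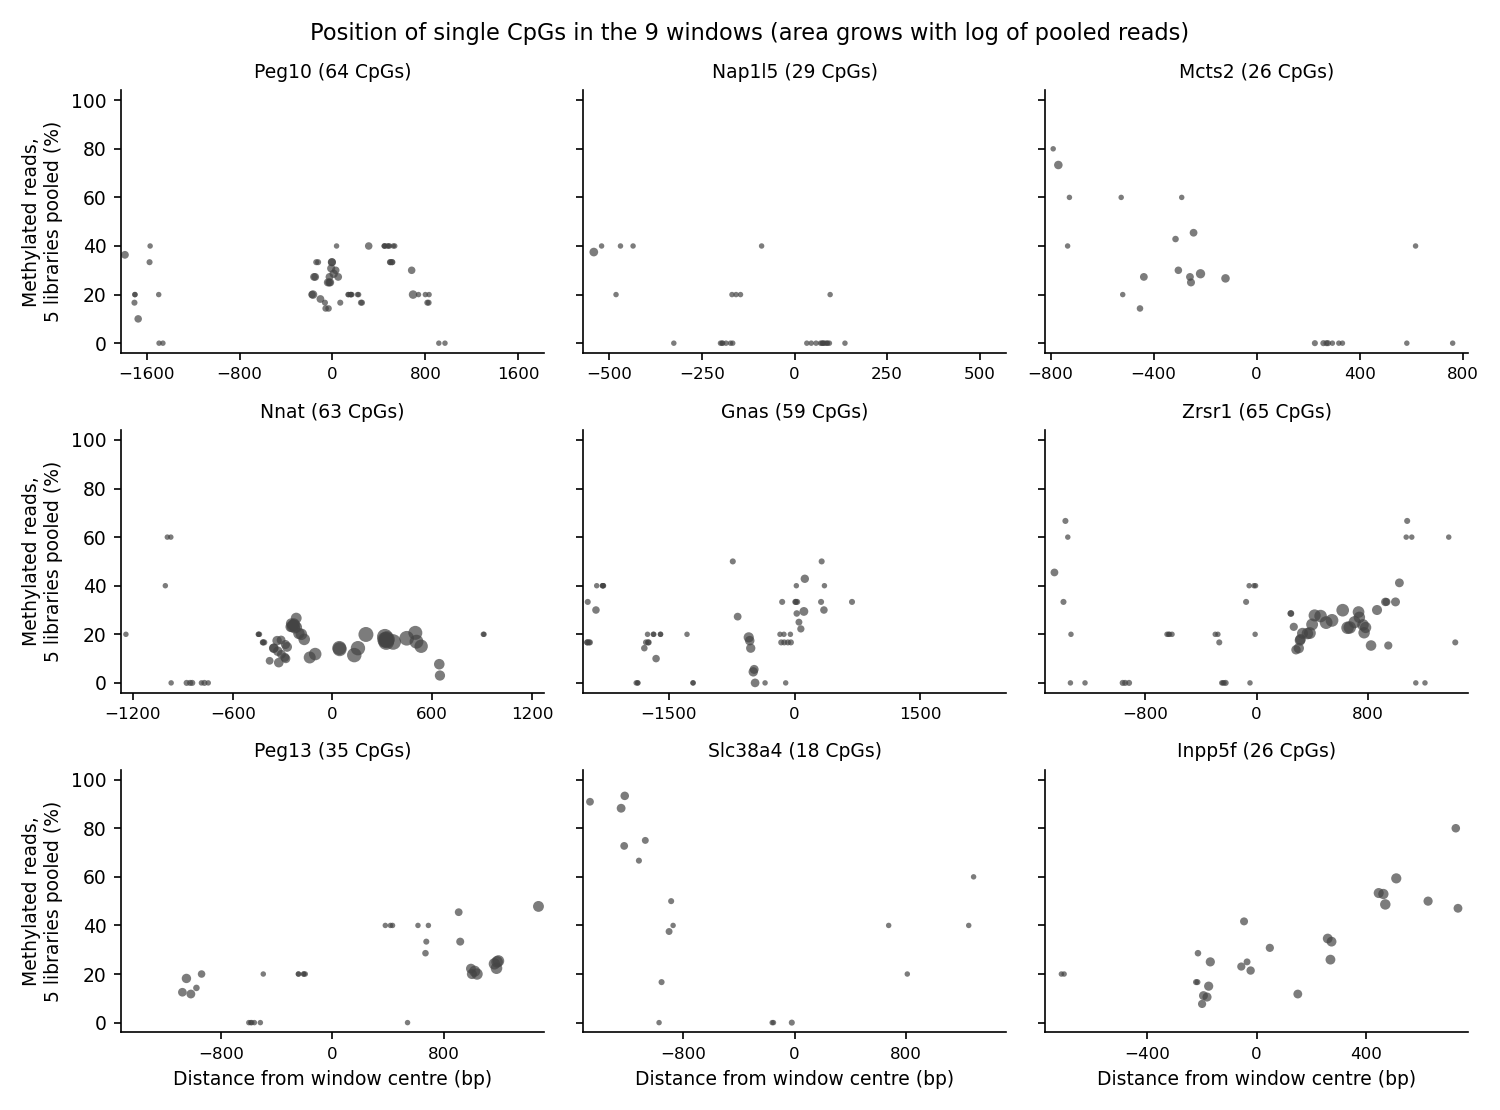
Each point is a CpG listed in any library, at its distance from the window centre (x axis, bp) and its percent of methylated reads pooled over the 5 libraries (y axis), with area growing with the log of the pooled reads. CpGs at 0% gather near the promoters of Nap1l5 and Mcts2, Slc38a4 begins with CpGs above 60%, and Inpp5f climbs toward its end; pooled values mix libraries that listed different CpGs.

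In the order of mean levels in old sperm Slc38a4 (49.2%), Mcts2 (37.9%) and Inpp5f (36.0%) stood highest, and Nnat (18.5%) and Peg13 (20.9%) lowest. In young sperm Slc38a4 (81.25%, 1 library), Inpp5f (38.7%) and Mcts2 (33.2%) stood highest, and Peg10 (13.6%) and Nnat (16.04%) lowest. Neighbours in either order, apart from Slc38a4, differed by less than the spread between libraries of at least one of them. Differences of old minus young were positive for 7 of the 9 members and negative for Slc38a4 and Inpp5f, and none could be separated from the spread between the libraries. The sign of the difference turned under at least 1 alternative setting for Nap1l5, Mcts2, Nnat, Peg13 and Inpp5f.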

How the data were processed

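Whole-genome bisulfite sequencing of sperm DNA gave 5 libraries, grouped by the age in the labels (2 old, 3 young). The submitters' processing notes name methylKit 1.4.0, Bismark 0.16.3 and Trim Galore 0.4.3, and the build mm10 (GRCm38). Their settings, and any removal of duplicates, were not given in the sources used here. Per the file headers, each deposited file holds a coverage count of reads at every listed CpG cytosine by strand, with the percent read as C and the percent read as T. The lowest coverage in each deposited file was 5 reads, so cytosines with fewer reads are missing from what the authors listed, and percent times coverage gave whole reads for 100% of cytosines. Incomplete conversion and C-to-T variants cannot be told apart from methylation calls in such reads.

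Methylated and total reads were summed over the listed strands of a CpG and over each window. A quasi-binomial logistic model of read counts (methylated, unmethylated) by age was fitted to 1000-bp tiles and windows with at least 3 CpGs in every library, with dispersion moderated by limma 3.58.1 (not under 1) in R 4.3.3 and Benjamini-Hochberg adjustment over all rows. Calls were rows with at least 10 points of difference and an adjusted p under 0.05. Differences of window means were tested by exact permutation, two-sided, and window with flank by exact sign-flip tests over libraries. The model was also run on simulated data, with changes larger than those of the windows tested and placed only in well-covered tiles. That run does not show how well changes of the size seen in these windows are found. Other steps ran in Python 3.11.15 with scipy 1.17.1, numpy 2.4.6, matplotlib 3.10.9 and pandas 2.3.3.

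The 9 members are all named. In each window the CpG named is the one of highest pooled level among those listed in all 5 libraries, which only Nnat, Zrsr1 and Peg13 had. Neighbouring genes are named where a tile within 20 kb was under 20% by pooled reads. A limit beside a count of 0 is 3 reads of the total. Marker and promoter intervals took 500 bp either side of the RefSeq promoter. The members, lists and tests were chosen with earlier results of these data known. Alternatives covered the model (binomial, limma on log2 ratios of counts with a pseudocount of 1), the minimum difference, the CpGs used, coverage minimums of 10 and 15 reads, an upper limit at the 99.9th percentile, equal weight of CpGs, window width, flank width, the replicate number and each library left out.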

Additional observations from a re-analysis of the deposited data

How the results depend on the processing

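The count of windows called by the quasi-binomial model was 0 under every alternative run, with 2 to 6 windows tested. The count of windows under 10% in every library was 0 in each setting, and 0 with a limit of 20%. The count with groups that did not overlap was 3. It was 0 with the CpGs listed in all 5 libraries (3 windows measured; 17% of tiles), 1 with at least 10 reads per CpG (Gnas, of 5; 17% of tiles), 1 with at least 15 (Peg13 lower, of 3; 16.6% of tiles) and 1 with windows widened by 500 bp (Gnas). The Peg13 value at 15 reads sets 1 old against 1 young library, which cannot overlap. Leaving out 1 library gave between 2, without young library 1 (28.9% of tiles), and 6, without young library 3 (33.2%), with 5 without old library 1 (42.4%). Leaving out old library 1 or 2 set Slc38a4 at 1 old against 1 young library, which cannot overlap. Equal weight of CpGs and the central part of the windows gave 3 each, but not all the same members. In the central part Nap1l5 also set 1 old against 1 young library. The window lay under its flank in 9 of 9 members, in 3 of 3 with the CpGs listed in all 5 libraries, in 3 of 3 with at least 15 reads, and in 7 of 8 with at least 10, where Slc38a4 did not. Fewer windows had reads under these settings. The difference of old minus young had the opposite sign in 7 of 13 alternatives for Peg13 (-9.46 to 9.96 points). It did so in 3 of 10 for Nap1l5, Mcts2 and Inpp5f each and in 1 of 13 for Nnat. For Peg10 and Gnas it was 0 of 10 each, for Zrsr1 0 of 13 and for Slc38a4 0 of 7. Not all alternatives could move the value. The upper coverage limit left every difference as it was. So did leaving out a library without listed CpGs: young library 2 for Gnas and Inpp5f, and young libraries 2 and 3 for Slc38a4. The sizes moved: 6.78 (windows widened) to 24.2 points for Peg10, 2.57 (without old library 1) to 16.4 (central part) for Gnas, 3.40 (without young library 2) to 12.2 for Zrsr1, and -38.6 to -9.33 (windows widened) for Slc38a4. The causes were not tested. Over tiles, deviations from the group means of libraries of the same number had a correlation of 0.00937 for number 1 and -0.0198 for number 2. With 2 old libraries their deviations from the mean mirror each other, so these values are not independent and cannot decide on a pairing. The main model took the numbers as names only. Whether libraries of the same number share a pair or a batch was not tested. With the replicate block, over libraries 1 and 2 of each age, 0 of 4 windows were called and the differences were 6.75 points for Nnat and 12.2 for Zrsr1, as without young library 3. Coverage set the limits: 6 of the windows had no CpG listed in all 5 libraries, so libraries were often read at different places.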
